A study of Mus musculus with 28 samples.

Results

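The genes of cholesterol synthesis, of its sterol sensors, of the liver X receptors (LXR) and of the neighbouring lipid pathways were followed across 6 treatment groups of mouse bone marrow-derived macrophages. The set was drawn up by name and holds 33 genes, each represented by its brightest array probe and kept if the scanner software flagged that probe as well above background on 3 or more arrays. All 33 were on the array and all 33 passed, out of 22406 genes tested and 27670 gene names on the array. By role they comprise 6 genes of the mevalonate and isoprenoid steps, 10 of the steps that turn squalene into cholesterol, 3 of sterol sensing, 2 of sterol transport and oxysterol synthesis, 2 LXR receptors, 4 LXR targets, the transporter gene Abca9, 4 genes of fatty acid synthesis and the lipase gene Lpl.

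Marrow cells of C57BL6/J mice, pooled from several animals (the labels name 2 males and 1 female, 8 to 12 weeks of age), were grown into macrophages in human recombinant CSF1, a macrophage growth factor, at 200 ng/ml. All 6 groups carry this CSF1 treatment. From day 7, IFNg_LPS cells received IFNgamma, a T cell cytokine, at 100 U/ml for 18 h and the bacterial lipopolysaccharide LPS at 10 ng/ml for the last 4 h (3 arrays). IFNg cells received the same IFNgamma treatment without LPS (3 arrays). IL4_LPS cells received the cytokine IL4 at 10 ng/ml for 18 h with LPS for the last 4 h (4 arrays), and IL4 cells the same IL4 treatment without LPS (4 arrays). LPS cells received LPS alone for 4 h (7 arrays), and untreated cells stayed in CSF1 (7 arrays). Arrays are named by the experiment letters of the labels, A to G. Nothing in the labels says which arrays came from separate pools of animals, so the p-values measure the spread between these arrays, part of which may be technical. In such bulk samples fewer cells of a type and less RNA per cell cannot be told apart.

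Cells make cholesterol from acetyl units through mevalonate, isoprenoids, squalene and lanosterol. When membrane sterol is low, the transcription factor SREBP2 (gene Srebf2) is released from the endoplasmic reticulum and raises transcription of nearly all enzymes of this route, and INSIG1 holds it back when sterol is ample. When oxidised sterols accumulate, the nuclear receptors LXRalpha (gene Nr1h3) and LXRbeta (gene Nr1h2) raise genes that move cholesterol out of the cell or limit its uptake. In macrophages the balance of both arms is known to respond to interferons and to bacterial products, and the oxysterol 25-hydroxycholesterol, made by the product of Ch25h, acts on both.

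Each value below is a relative level, the log2 of the array's processed signal minus the 75th percentile of that array, so that 1 unit is a doubling. Levels are compared between groups for the same probe and never between genes. A change is the difference of 2 group means, fitted by limma with 1 model for all 28 arrays, and a gene is called when its p-value, adjusted by the Benjamini-Hochberg method over all 22406 genes, is under 0.05. Fitted changes carry their standard error after the ± sign.

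The 75th percentile of signal ran from 582 to 2113 over the 28 arrays, 60.0% to 78.6% of probes were well above background, and within-group correlations of levels were 0.941 to 0.991. The macrophage genes Csf1r, Adgre1, Itgam, Cd68, Mertk and Fcgr1 summed to 343 to 941 times the array's 75th percentile. The treatment labels held in the scanner files, with the IL4-induced gene Retnla at 7.28 or more on all 8 IL4-treated arrays and -6.60 or less on the other 20. No gene checks the experiment letters. In the value table that the authors deposited, 2 of 28 columns match the scanner array of their own name and 15 an array of their own group, so the letters, which serve here as names and in alternative fits, are less certain than the treatments. Arrays were hybridised on 10 slides. The slide sets used below are a grouping made here, not one that the labels name. Slides of 1 scan day were joined where no group would then occur more than once, as in slide sets 3 and 7. Otherwise a slide was its own set. This gave 7 slide sets, all of which hold more than 1 group. One of them, slide set 3 (IL4_LPS array C, IL4 array C, LPS array E and untreated array G), stood apart for the genes described here: its median deviation from the group mean over the 16 cholesterol synthesis genes was -0.62 on the IL4_LPS array, -0.94 on the IL4 array, -1.12 on the LPS array and -1.24 on the untreated array. These arrays were the lowest of their group for 14, 15, 15 and 15 of the 16 genes. Slide set 1 lay at the other end, with median deviations of 0.52 to 0.86. No IFNg or IFNg_LPS array is in slide sets 1 to 4, so results are also given without slide set 3, within slide sets, and with the slide set as a block.

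**Figure D1:**
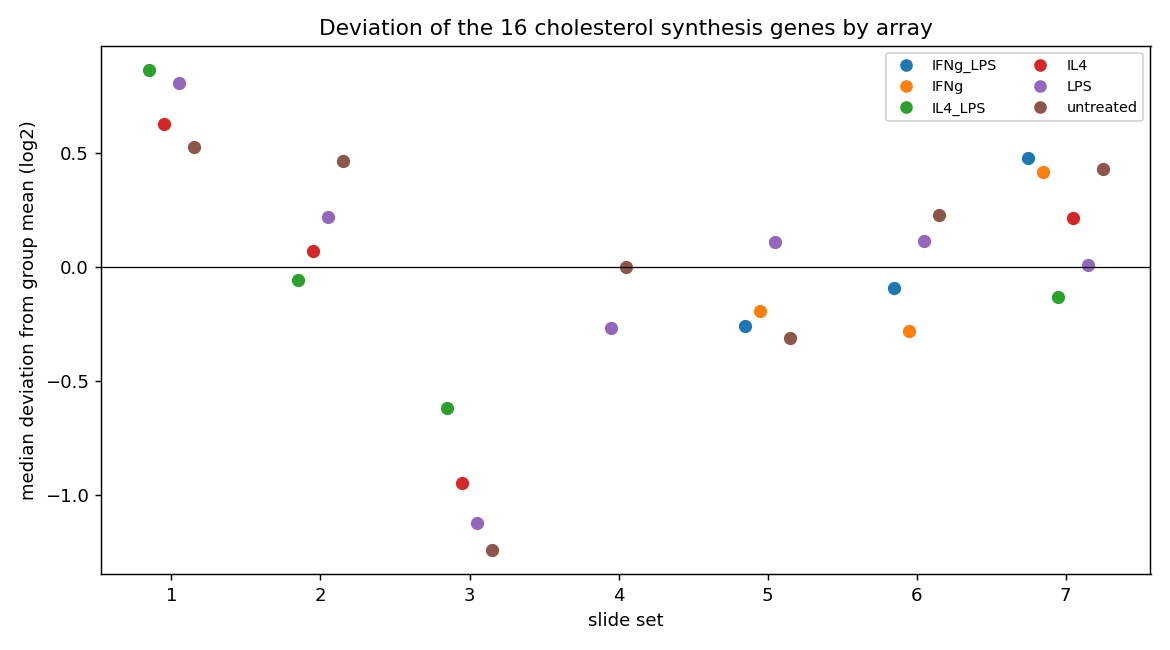
Median deviation of the 16 cholesterol synthesis genes from their group mean (y axis, log2 units) on each of the 28 arrays, arranged by slide set (x axis) and coloured by treatment group. All 4 arrays of slide set 3 lie below 0, from -1.24 to -0.62, and all 4 arrays of slide set 1 lie above 0.

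Promoters of 4 synthesis genes are shown because SREBP2 is known to act at short sterol regulatory elements together with the factor NF-Y, which binds CCAAT boxes, and these genes fell in IFNg against untreated (Mvd was not called in IFNg_LPS against LPS). They come from RefSeq (GRCm38.p6), from 250 bases before to 50 after the start of the gene: Hmgcs1 at chr13:119690101-119690400 (+ strand), Idi1 at chr13:8885356-8885655 (+ strand), Mvd at chr8:122443373-122443672 (- strand) and Cyp51 at chr5:4104648-4104947 (- strand). Each is printed 5′ to 3′ along the gene. Capitals mark the letters TCACNCCAC and CCAAT on either strand, where ATTGG is CCAAT on the reverse strand.
Hmgcs1: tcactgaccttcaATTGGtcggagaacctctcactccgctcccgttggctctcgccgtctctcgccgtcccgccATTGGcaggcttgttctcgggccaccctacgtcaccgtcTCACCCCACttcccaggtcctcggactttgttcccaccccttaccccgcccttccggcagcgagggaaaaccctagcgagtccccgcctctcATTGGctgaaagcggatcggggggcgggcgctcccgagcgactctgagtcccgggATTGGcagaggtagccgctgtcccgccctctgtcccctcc
Idi1: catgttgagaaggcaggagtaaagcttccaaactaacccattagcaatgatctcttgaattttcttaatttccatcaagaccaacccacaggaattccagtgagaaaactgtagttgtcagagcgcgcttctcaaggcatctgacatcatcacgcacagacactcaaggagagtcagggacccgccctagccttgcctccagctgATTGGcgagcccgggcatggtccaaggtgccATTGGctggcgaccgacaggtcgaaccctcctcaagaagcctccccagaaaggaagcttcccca
Mvd: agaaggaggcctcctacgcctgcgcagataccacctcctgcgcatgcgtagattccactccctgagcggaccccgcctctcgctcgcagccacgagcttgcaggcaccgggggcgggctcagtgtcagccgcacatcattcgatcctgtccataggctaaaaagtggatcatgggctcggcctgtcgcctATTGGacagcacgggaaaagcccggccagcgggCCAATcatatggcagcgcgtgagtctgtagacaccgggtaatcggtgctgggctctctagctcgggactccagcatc
Cyp51: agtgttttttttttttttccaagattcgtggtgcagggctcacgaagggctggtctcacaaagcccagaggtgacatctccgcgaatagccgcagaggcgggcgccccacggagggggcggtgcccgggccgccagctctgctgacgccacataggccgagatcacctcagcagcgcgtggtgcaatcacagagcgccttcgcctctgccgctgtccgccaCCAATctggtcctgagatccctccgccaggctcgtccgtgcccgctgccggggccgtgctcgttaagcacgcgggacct
Of the 33 genes, 25 had a promoter in the table. The sterol element TCACNCCAC, searched on both strands, was in 1 of these 25, Hmgcs1, at position -137 from the gene start, and in 1.24% of all 32851 promoters of the same length. CCAAT was in 18 of the 25 and in 37.4% of all promoters; Hmgcs1 holds it at 4 places, Idi1 and Mvd at 2 each and Cyp51 at 1. The LXR direct repeat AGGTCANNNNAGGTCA was in 0 of the 25 and in 0.0152% of all promoters. A match of letters is no evidence of binding, and a missing match says only that these letters are not in this window.

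Across the whole set the IFNgamma comparisons held the most calls. In IFNg against untreated cells 20 of the 33 genes were called, 4 higher and 16 lower, where 25.8% of all genes were called in either direction (13% higher and 12.8% lower). In IFNg_LPS against LPS cells 21 were called, 4 higher and 17 lower, where 22.7% of all genes were called (10.8% higher and 11.9% lower). LPS against untreated gave 13 called genes, 7 higher and 6 lower, against 42.8% of all genes (22% higher and 20.7% lower), a share of the set that is near the background. IL4_LPS against IL4 gave 7, 4 higher and 3 lower, against 31.3% (15.7% higher and 15.6% lower). The other comparisons within a priming or between IL4 and its control gave few: 1 gene, higher, for IFNg_LPS against IFNg (11.7% of all genes, 5.92% higher and 5.79% lower), 2 for IL4 against untreated, 1 in each direction (11.3% of all genes, 5.81% higher and 5.5% lower), and 4 for IL4_LPS against LPS, 3 higher and 1 lower (8.92% of all genes, 4.42% higher and 4.5% lower). Comparisons that share control arrays are not independent of each other.

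The median change of the 33 genes was -0.96 in IFNg against untreated, where the median of all genes was -0.27, and -1.11 in IFNg_LPS against LPS, where it was -0.23. It was 0.10 in LPS against untreated and 0.16 in IL4 against untreated, beside all-gene medians of 0.09 and 0.01. Scaling each array to its median instead of its 75th percentile moved the all-gene median of IFNg against untreated to 0.17 and that of IFNg_LPS against LPS to 0.03. Relative to all genes, a difference that such a scaling cannot alter, the set's median was -0.69 in IFNg against untreated and -0.88 in IFNg_LPS against LPS. The calls moved: with median scaling 9 of the 33 passed in IFNg against untreated, 5 higher and 4 lower, and over all genes the split changed to 3998 higher and 1131 lower, beside 2917 higher and 2866 lower in the fit reported here. For IFNg_LPS against LPS it changed to 2477 higher and 962 lower, beside 2428 higher and 2669 lower.

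Single arrays also moved these counts. Without IFNg array E the 20 calls of IFNg against untreated became 11, and without IFNg array F they became 12. With the slide set as a block there were 27 calls in IFNg against untreated (5 higher, 22 lower), and without slide set 3 there were 25 (5 higher, 20 lower). Over all 22406 genes 7751 were called with the block and 5519 without slide set 3, beside 5783 in the fit reported here. Within the 3 slide sets that hold both groups, 19 of the 20 called genes differed in the called direction in every set, the exception being Lpl. The counts of IFNg_LPS against LPS were 26 with the block and 25 without slide set 3, where 7405 and 5013 of all genes were called. All 21 called genes had 1 direction in the 3 shared sets. In both comparisons the genes were called on these same arrays, so such agreement of direction is no independent support. The block also raised the counts of the LPS comparisons, to 24 in LPS against untreated (15 higher, 9 lower, with 12825 of all 22406 genes called) and to 9 in IFNg_LPS against IFNg (4 higher, 5 lower, with 5998 of all genes called).

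**Figure D2:**
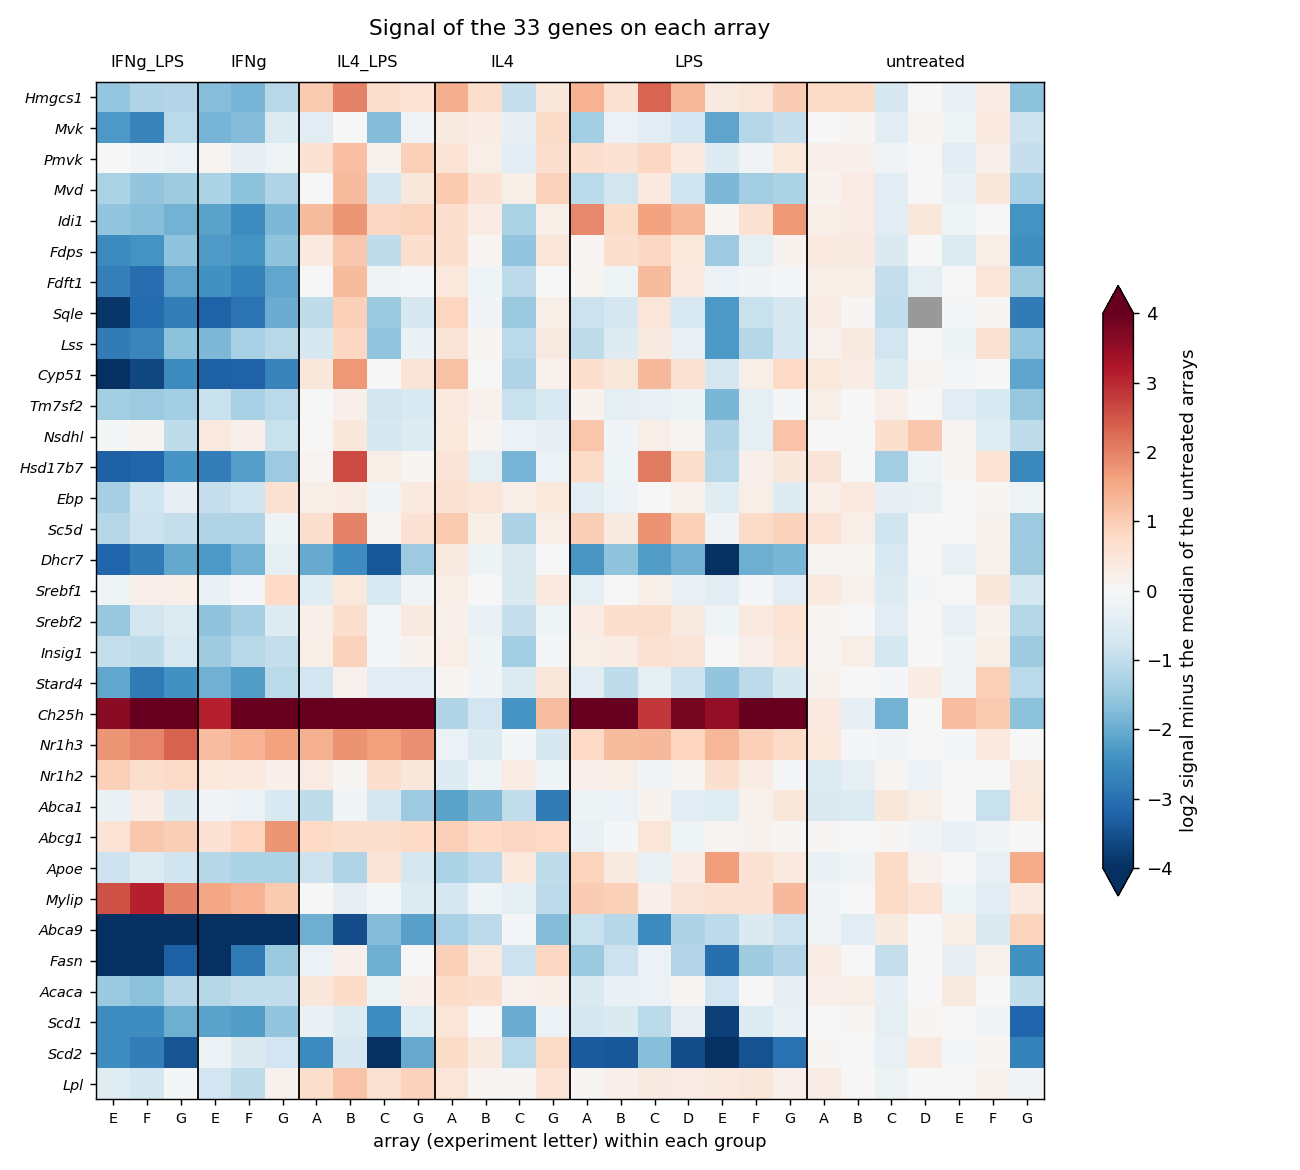
Heat map of the relative level of the 33 genes (rows, grouped by role) on the 28 arrays (columns, grouped by treatment), as the log2 difference from the median of the untreated arrays, with colours limited to 4 units either way; the grey cell is a spot left out. The IFNg_LPS and IFNg columns are below the untreated median for most synthesis genes and above it for Ch25h, Nr1h3 and Mylip, and untreated array G is low for the synthesis genes.

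In the mevalonate and isoprenoid steps 5 of the 6 genes fell in IFNg against untreated cells, and 3 of them fell in IFNg_LPS against LPS cells. Hmgcs1, whose product HMG-CoA synthase starts the route, stood at 2.56, 2.42 and 3.15 on IFNg arrays E, F and G, against 2.62 to 5.03 with a median of 4.27 on the 7 untreated arrays. On IFNg_LPS arrays E, F and G it stood at 2.73, 3.08 and 3.10, against 4.62 to 6.60 with a median of 5.27 on the 7 LPS arrays. The IFNg and untreated ranges overlapped through untreated array G alone, while the IFNg_LPS and LPS ranges lay apart. The fitted changes were -1.46 ± 0.49 in IFNg against untreated (limma adjusted p = 0.0292) and -2.37 ± 0.49 in IFNg_LPS against LPS (adjusted p = 0.000792).

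Idi1 encodes isopentenyl diphosphate isomerase, which interconverts the building blocks of isoprenoids. Its level was 0.85, 0.45 and 1.19 on IFNg arrays E, F and G, against 0.60 to 3.43 with a median of 2.98 on untreated arrays, and all but untreated array G lay above the IFNg arrays. On IFNg_LPS arrays it was 1.40, 1.29 and 1.10, against 3.07 to 4.90 with a median of 4.29 on LPS arrays, without overlap. Idi1 fell by 1.87 ± 0.48 on the log2 scale in IFNg against untreated (limma adjusted p = 0.00493) and by 2.86 ± 0.48 in IFNg_LPS against LPS (adjusted p = 0.000101), and within the shared slide sets the differences ran from -2.98 to -1.71 and from -3.50 to -2.62.

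The kinase gene Mvk (change -1.27 ± 0.41, adjusted p = 0.0236), the decarboxylase gene Mvd (-1.20 ± 0.39, adjusted p = 0.0251) and Fdps, the gene of farnesyl diphosphate synthase (-1.72 ± 0.57, adjusted p = 0.0261), also fell in IFNg against untreated by limma. Fdps fell by 2.22 ± 0.57 in IFNg_LPS against LPS (limma adjusted p = 0.00517), while Mvk (-1.02, 95% interval -1.87 to -0.18, adjusted p = 0.0753) and Mvd (-0.46, interval -1.27 to 0.35) were not called there. Pmvk, the gene of the kinase between Mvk and Mvd, had a change of 0.01 with an interval of -0.59 to 0.60 in IFNg against untreated and of -0.43 with an interval of -1.02 to 0.17 in IFNg_LPS against LPS. Several of these calls rested on single arrays. In IFNg against untreated, leaving out IFNg array E or F ended the calls of Hmgcs1, Mvk, Mvd and Fdps (adjusted p = 0.0655 to 0.149), and leaving out untreated array A or B ended that of Hmgcs1 too (its lowest adjusted p among the 4 arrays was 0.0553). With the slide set as a block all 5 changes stayed called, between -2.12 for Idi1 and -1.26 for Mvd. Under median scaling, and with only shared experiments, all 5 calls were lost. The experiment letter as a block also ended those of Hmgcs1, Mvk, Mvd and Fdps. Normexp background correction ended those of Hmgcs1 and Mvk.

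LPS alone moved genes of the same steps in both directions. Hmgcs1 was higher in LPS against untreated cells by 1.18 ± 0.38 (limma adjusted p = 0.0128) and Idi1 by 1.42 ± 0.37 (adjusted p = 0.00283), while Mvk was lower by a change of -0.88 ± 0.32 (adjusted p = 0.0265) and Mvd by -0.80 ± 0.30 (adjusted p = 0.0366). Mvk ran from -2.34 to -0.46 with a median of -1.16 on LPS arrays, against -1.06 to 0.14 with a median of -0.24 on untreated arrays. Hmgcs1 and Idi1 were higher in all 7 slide sets, Mvk was lower in all 7, and Mvd was lower in 6 of 7, with differences of -1.26 to 0.24. The Mvd call was lost without any 1 of 8 arrays (LPS A, E, F or G, untreated A, B, D or F, adjusted p = 0.0593 to 0.0947) and that of Mvk without LPS array A, LPS array E or untreated array F (0.0529 to 0.0768). Under quantile normalization the Hmgcs1 change was 0.51 (adjusted p = 0.29).

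Among the 10 genes from squalene to cholesterol, all 10 had negative changes in IFNg against untreated and 3 were called, while 6 were called lower in IFNg_LPS against LPS. Cyp51, which encodes lanosterol 14-alpha-demethylase, stood at -2.18, -2.14 and -1.57 on IFNg arrays E, F and G, against -1.01 to 1.52 with a median of 1.10 on untreated arrays. Its levels on IFNg_LPS arrays were -2.94, -2.56 and -1.44, against 0.44 to 2.41 with a median of 1.71 on LPS arrays. Neither pair of ranges overlapped. Cyp51 fell by 2.79 ± 0.50 in IFNg against untreated (limma adjusted p = 0.000149) and by 3.89 ± 0.50 in IFNg_LPS against LPS (adjusted p = 3.58e-06), the largest falls among the 16 synthesis genes in these comparisons. Within shared slide sets the differences were -3.35 to -2.67 in IFNg against untreated and -4.70 to -2.98 in IFNg_LPS against LPS.

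Fdft1, the gene of squalene synthase, read -0.85, -1.14 and -0.52 on IFNg arrays E, F and G, against 0.14 to 2.04 with a median of 1.57 on untreated arrays. On IFNg_LPS arrays it read -1.16, -1.48 and -0.55, against 1.33 to 2.82 with a median of 1.48 on LPS arrays. The ranges lay apart in both cases, with changes of -2.15 ± 0.40 in IFNg against untreated (limma adjusted p = 0.0002) and -2.79 ± 0.40 in IFNg_LPS against LPS (adjusted p = 1.28e-05). A dimmer probe of Fdft1, well above background on all 28 arrays, did not show the fall in IFNg against untreated, with a change of 0.24 (unadjusted p = 0.561).

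Sqle, the gene of squalene epoxidase, was at 0.32, 0.60 and 1.58 on IFNg arrays E, F and G, against 0.78 to 3.89 with a median of 3.57 on the 6 untreated arrays that have a value. Untreated array D has none because its spot was an outlier, so that 27 arrays entered this fit. Sqle fell by 2.17 ± 0.64 in IFNg against untreated (limma adjusted p = 0.0141), a call that was lost without IFNg array E or F (adjusted p = 0.0587 to 0.0851), and by 2.46 ± 0.63 in IFNg_LPS against LPS (adjusted p = 0.00536), lost without IFNg_LPS array E (adjusted p = 0.0529). Hsd17b7, a ketoreductase gene of the demethylation steps, was at -3.03, -2.95 and -2.12 on IFNg_LPS arrays E, F and G, against -0.86 to 2.31 with a median of 0.69 on LPS arrays, without overlap. Its change was -3.36 ± 0.67 in IFNg_LPS against LPS (limma adjusted p = 0.000552), and in IFNg against untreated it was -1.71 with an interval of -3.09 to -0.34 and missed the threshold (adjusted p = 0.0607).

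Sc5d, a desaturase gene near the end of the route, fell by 1.78 ± 0.46 in IFNg_LPS against LPS (limma adjusted p = 0.00571), and the lanosterol synthase gene Lss by 1.55 ± 0.51 (adjusted p = 0.029). The Lss call was lost without IFNg_LPS array E or F or LPS array C or D (adjusted p = 0.051 to 0.154). In IFNg against untreated Lss had a change of -1.21 with an interval of -2.27 to -0.16 (adjusted p = 0.085) and Sc5d one of -0.69 with an interval of -1.64 to 0.26. The sterol reductase gene Tm7sf2 had changes of -0.79 in IFNg against untreated (adjusted p = 0.121) and -0.97 in IFNg_LPS against LPS (adjusted p = 0.0616). Without slide set 3, Lss (-1.44, adjusted p = 0.00508), Tm7sf2 (adjusted p = 0.00266), Hsd17b7 (-2.07, adjusted p = 0.0067) and Dhcr7 (-1.44, adjusted p = 0.00253) were called lower in IFNg against untreated. The dehydrogenase gene Nsdhl, with a change of -0.14 and an interval of -1.05 to 0.78, and the isomerase gene Ebp, with -0.36 and an interval of -0.91 to 0.19, were called in neither setting. Ebp was spread within the IFNg group, at 4.00, 4.14 and 5.54 on arrays E, F and G, against 4.60 to 5.30 with a median of 4.93 on untreated arrays.

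**Figure D3:**
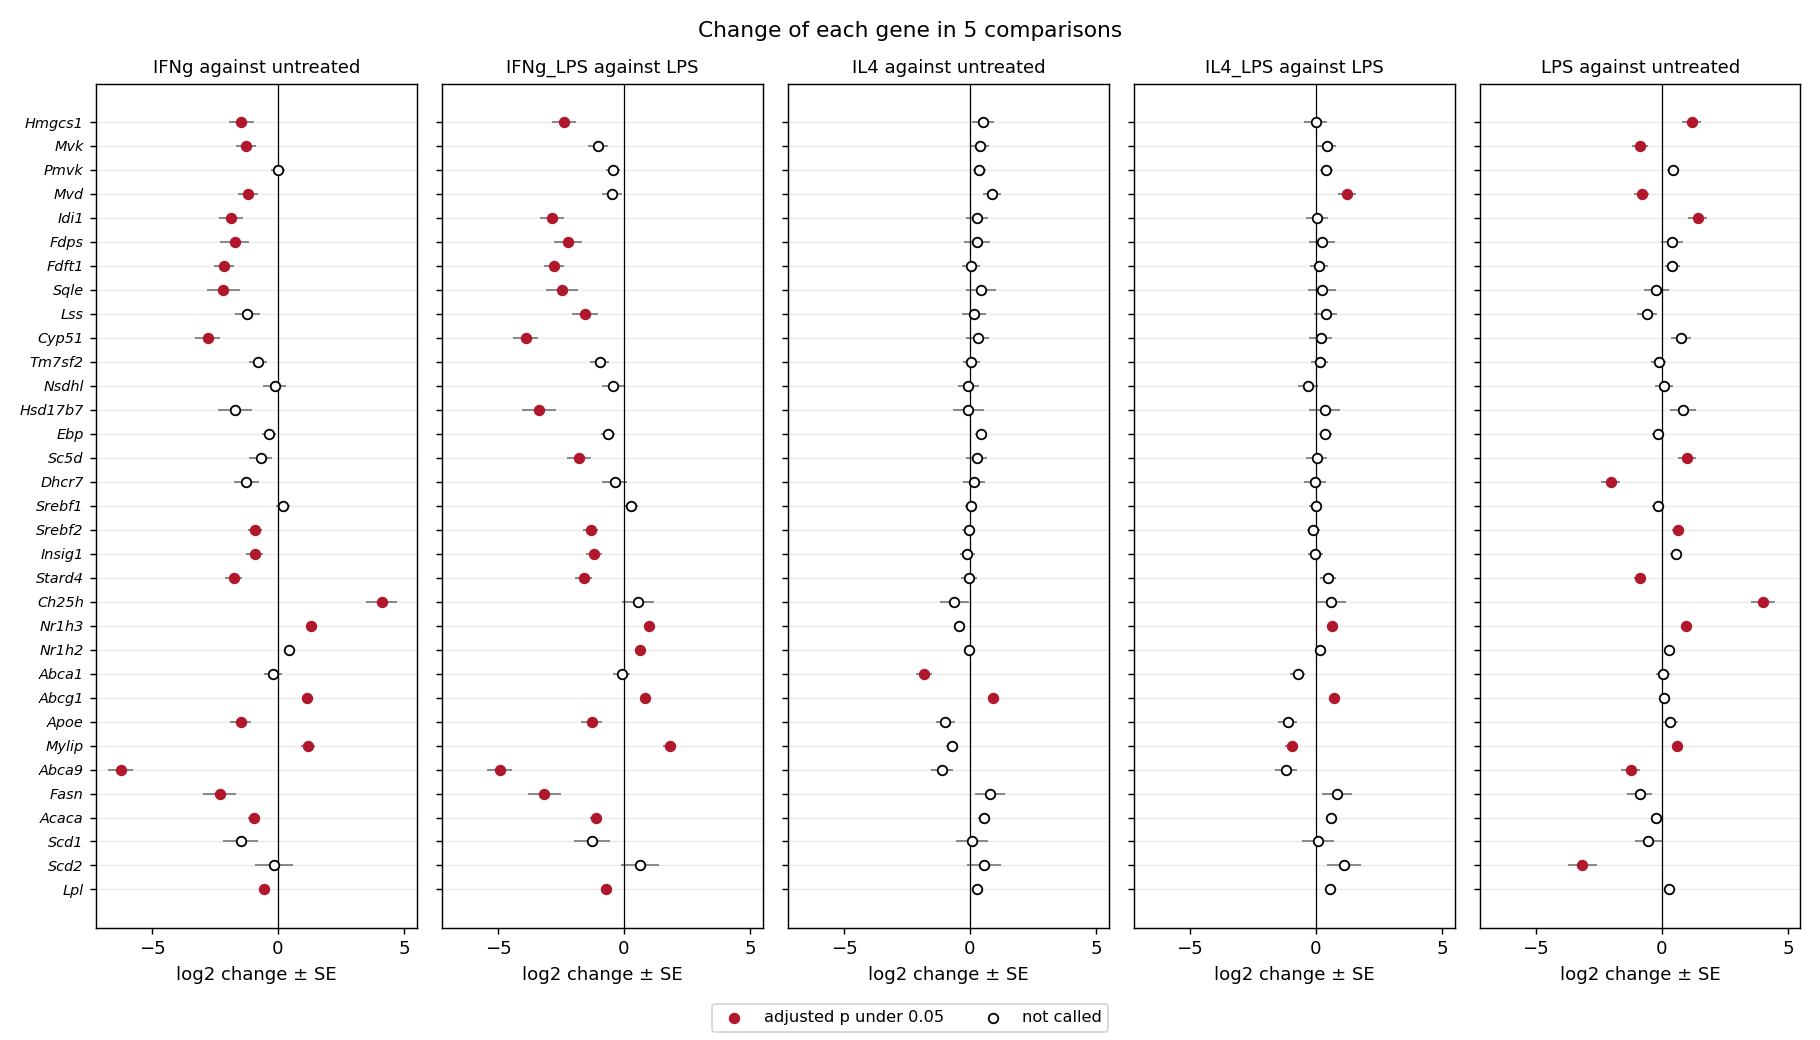
Fitted log2 change of each of the 33 genes ± its standard error in 5 comparisons, 1 panel each, from left to right IFNg against untreated, IFNg_LPS against LPS, IL4 against untreated, IL4_LPS against LPS and LPS against untreated; filled points passed an adjusted p of 0.05. Filled points of the synthesis genes lie left of 0 in the IFNg panels, between -3.89 and -1.20, and few points of the IL4 panels are filled. The Abca9 points of both IFNg panels rest on signals not well above background.

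Dhcr7 encodes the reductase of the last step, from 7-dehydrocholesterol to cholesterol, and had the largest fall of the 16 synthesis genes in LPS against untreated and in IL4_LPS against IL4. It was at -0.85 to 1.76 with a median of 1.43 on LPS arrays, against 1.96 to 3.56 with a median of 3.38 on untreated arrays, without overlap. In IL4_LPS cells it was at 1.36, 0.88, -0.02 and 1.92 on arrays A, B, C and G, against 3.74, 3.19, 2.79 and 3.37 in IL4 cells, again without overlap. It fell by 2.02 ± 0.38 in LPS against untreated (limma adjusted p = 7.75e-05) and by 2.24 ± 0.50 in IL4_LPS against IL4 (adjusted p = 0.00092), and was lower in each of the 7 and 4 slide sets. In IFNg_LPS against IFNg its change was -1.14 with an interval of -2.33 to 0.05 (adjusted p = 0.247). LPS against untreated also raised Sc5d by 0.99 ± 0.36 on its brightest probe (limma adjusted p = 0.0264), but another Sc5d probe moved the opposite way (-0.98, unadjusted p = 0.00861), the mean of its probes gave 0.00, and the call was lost without LPS array C, untreated array C or untreated array G (adjusted p = 0.0591 to 0.0738).

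Over the 16 synthesis genes, 8 were called lower and 0 higher in IFNg against untreated, with 15 of 16 changes negative and a median of -1.26; with median scaling 2 were called and 13 changes were negative. In IFNg_LPS against LPS 9 were called lower and 0 higher, all 16 changes were negative under every scaling tried, and the median was -1.67. LPS against untreated had 3 higher and 3 lower with a median of 0.24, IL4_LPS against IL4 had 1 lower (Dhcr7), and IL4 against untreated and IFNg_LPS against IFNg had none. The lowest of the 6 group means was that of IFNg_LPS for 13 of the 16 genes, of IFNg for 2 and of untreated for 1. The highest was that of IL4 for 7, of IL4_LPS for 7 and of LPS for 2.

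Of the sterol sensors, Srebf2 and Insig1 fell in both IFNgamma comparisons and Srebf1 in neither. Srebf2, the gene of SREBP2, was at 3.78, 4.04 and 4.86 on IFNg arrays E, F and G, against 4.25 to 5.53 with a median of 5.38 on untreated arrays. It was at 3.87, 4.65 and 4.84 on IFNg_LPS arrays, against 5.21 to 6.09 with a median of 5.77 on LPS arrays, and only the IFNg_LPS and LPS ranges lay apart. The changes were -0.92 ± 0.28 in IFNg against untreated (limma adjusted p = 0.0184) and -1.32 ± 0.28 in IFNg_LPS against LPS (adjusted p = 0.00123). Insig1, whose product retains SREBP in the endoplasmic reticulum, changed by -0.93 ± 0.32 in IFNg against untreated (adjusted p = 0.0349) and -1.19 ± 0.32 in IFNg_LPS against LPS (adjusted p = 0.00805). In IFNg against untreated the Srebf2 call was lost without IFNg array E or F (adjusted p = 0.0879 to 0.153) and the Insig1 call without any 1 of 7 arrays (IFNg E or F, untreated A, B, D, E or F, adjusted p = 0.0531 to 0.16). Both were also lost with the letter block, only the groups compared, only shared experiments or slide sets, normexp and median scaling. Quantile normalization ended that of Insig1 too. Over all alternatives the highest adjusted p was 0.439 for Srebf2 and 0.421 for Insig1. In IFNg_LPS against LPS both were lost with only shared experiments and under median scaling, and Insig1 also under normexp. Srebf1, the gene of SREBP1, had changes of 0.19 with an interval of -0.38 to 0.76 and 0.29 with an interval of -0.28 to 0.85. In LPS against untreated Srebf2 was higher by 0.63 ± 0.22 (adjusted p = 0.0223), but lost its call without untreated array G (0.48, adjusted p = 0.0646) and was at -0.14 (adjusted p = 0.62) after quantile normalization.

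Stard4, the gene of a cytosolic carrier that moves sterol between membranes, was at -0.64, -0.96 and 0.19 on IFNg arrays E, F and G, against 0.19 to 2.23 with a median of 1.27 on untreated arrays. On IFNg_LPS arrays it was at -0.82, -1.56 and -1.17, against -0.31 to 0.88 with a median of 0.43 on LPS arrays, and neither pair of ranges overlapped, although IFNg array G reached the level of untreated array G. It fell by 1.75 ± 0.33 in IFNg against untreated (limma adjusted p = 0.000237) and by 1.59 ± 0.33 in IFNg_LPS against LPS (adjusted p = 0.000825). In LPS against untreated its brightest probe fell by 0.87 ± 0.26 (adjusted p = 0.00688), while its other 2 probes changed by 0.41 and 0.42 and the mean of its probes by -0.01.

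Ch25h, the gene of cholesterol 25-hydroxylase, had the largest rise of the 33 genes in each comparison that called it higher. It was at 4.66, 5.57 and 6.23 on IFNg arrays E, F and G, against -0.34 to 2.79 with a median of 1.54 on untreated arrays. LPS arrays had it at 4.36 to 5.99 with a median of 5.62, and the 4 IL4_LPS arrays at 6.14, 5.68, 6.16 and 6.00, against 0.33, 0.78, -0.83 and 2.76 on IL4 arrays A, B, C and G. No range with IFNgamma or LPS overlapped its counterpart without either. The rises were 4.11 ± 0.63 in IFNg against untreated (limma adjusted p = 1.92e-05), 4.00 ± 0.49 in LPS against untreated (adjusted p = 1.68e-07) and 5.23 ± 0.64 in IL4_LPS against IL4 (adjusted p = 4.08e-07).

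With both agents Ch25h was at 5.16, 6.14 and 6.54 on IFNg_LPS arrays E, F and G, a change of 0.46 with an interval of -1.07 to 1.99 against IFNg and of 0.57 with an interval of -0.73 to 1.86 against LPS. The interaction, the LPS change in IFNgamma-primed cells minus that in unprimed cells, was -3.54 ± 0.89 (limma adjusted p = 0.0112), and it was the only one of the 33 genes called in that interaction, where 8.3% of all genes were called (2.97% higher and 5.33% lower). Without IFNg_LPS array E the interaction was -3.15 (adjusted p = 0.0539).

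**Figure D4:**
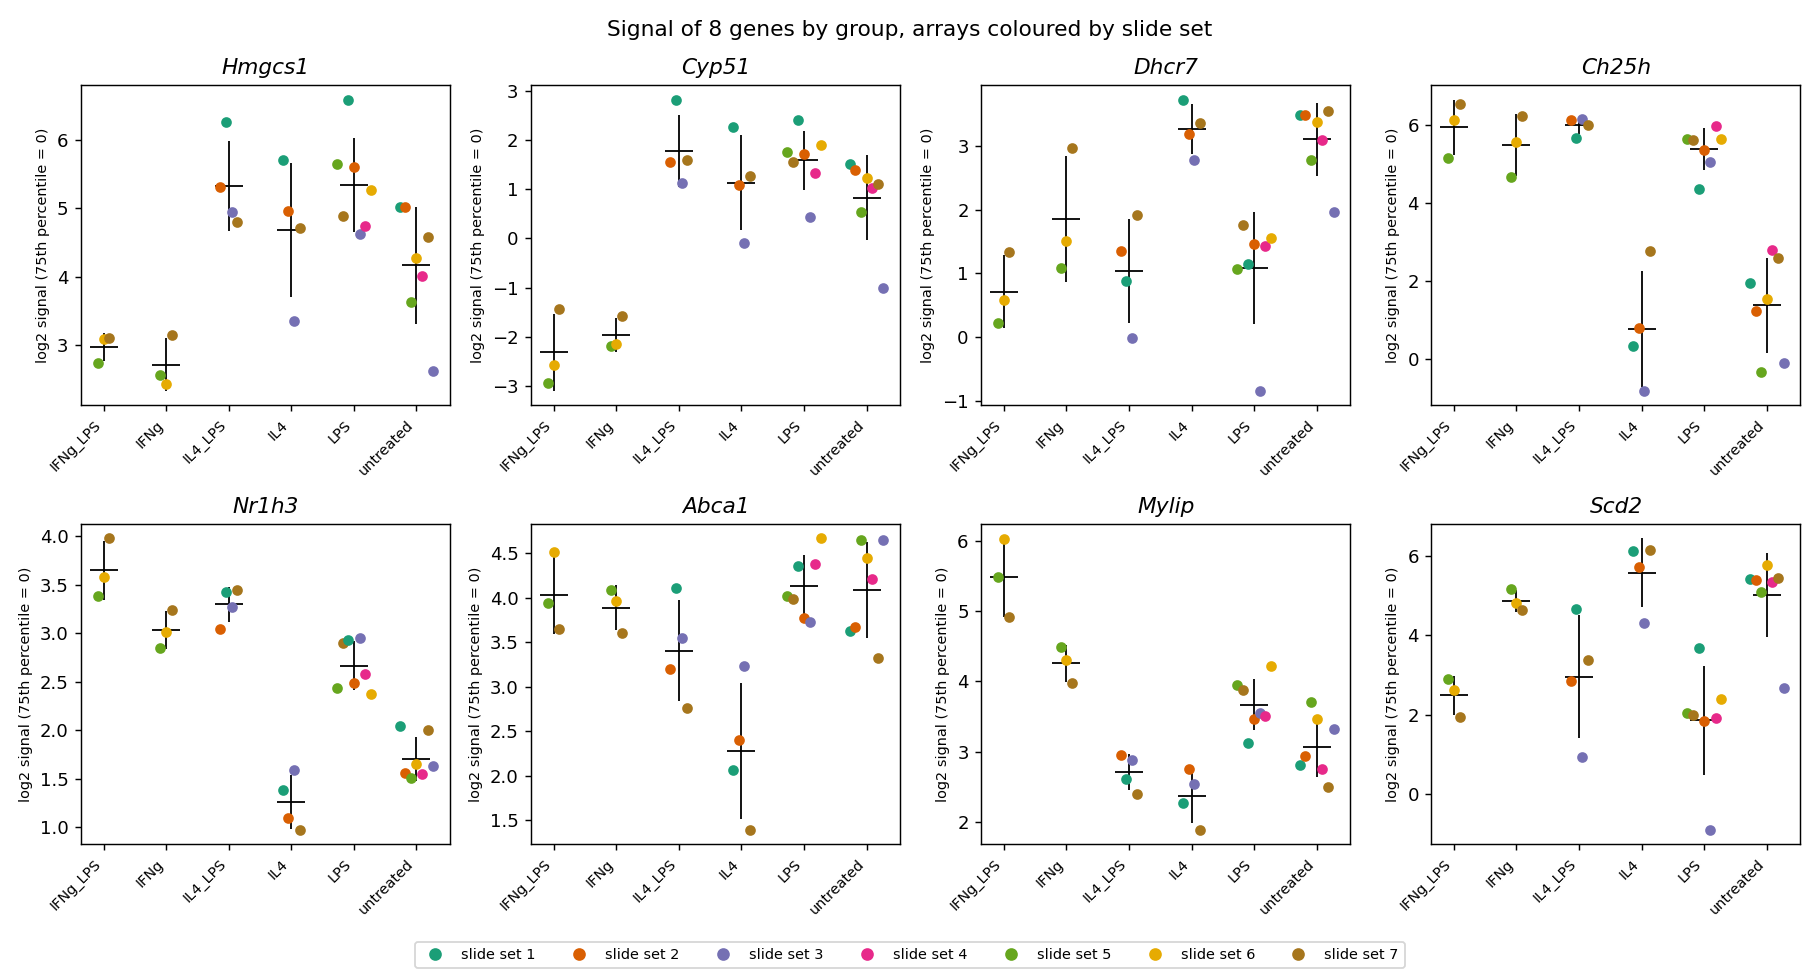
Relative level (y axis, log2 signal minus the array's 75th percentile) of Hmgcs1, Cyp51, Dhcr7, Ch25h, Nr1h3, Abca1, Mylip and Scd2 by treatment group (x axis), 1 point per array coloured by slide set, with bars for the group mean ± SD. Cyp51 is lowest on the IFNg_LPS and IFNg arrays, Dhcr7 and Scd2 are low in the groups with LPS, and Ch25h is high on all arrays with IFNgamma or LPS.

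Nr1h3, the gene of LXRalpha, rose with IFNgamma and with LPS. It was at 2.85, 3.01 and 3.24 on IFNg arrays E, F and G, against 1.50 to 2.05 with a median of 1.63 on untreated arrays, and at 2.38 to 2.95 with a median of 2.58 on LPS arrays. On IFNg_LPS arrays it was at 3.39, 3.58 and 3.98, above every LPS array. Its changes were 1.33 ± 0.18 in IFNg against untreated (limma adjusted p = 4.26e-06), 0.96 ± 0.14 in LPS against untreated (adjusted p = 2.96e-06) and 0.98 ± 0.18 in IFNg_LPS against LPS (adjusted p = 0.000271). In IFNg_LPS against IFNg it differed by 0.61 with an interval of 0.17 to 1.06 and an adjusted p of 0.0656, without overlap of the ranges.

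The LPS change of Nr1h3 was larger in IL4-primed cells. Nr1h3 was at 3.05, 3.42, 3.27 and 3.45 on IL4_LPS arrays A, B, C and G, against 1.39, 1.09, 1.59 and 0.98 on IL4 arrays, a change of 2.04 ± 0.19 (limma adjusted p = 2.96e-09). The interaction of IL4 with LPS was 1.07 ± 0.23 (adjusted p = 0.013), the only one of the 33 genes called, where 1.66% of all genes were called (0.96% higher and 0.696% lower). IL4_LPS cells were above LPS cells by 0.63 ± 0.16 (adjusted p = 0.0144), a call that was lost without IL4_LPS array G (0.58, adjusted p = 0.0581), while IL4 cells differed from untreated cells by -0.44 with an interval of -0.78 to -0.10 (adjusted p = 0.0891). Under median scaling the interaction was 0.89 and was not called (adjusted p = 0.67). Nr1h2, the gene of LXRbeta, was called in 1 comparison, higher by 0.62 ± 0.19 in IFNg_LPS against LPS (adjusted p = 0.02), and that call was lost without IFNg_LPS array E (0.56, adjusted p = 0.111). The Nr1h2 call was also lost with the letter block, only the groups compared, only shared experiments or slide sets, normexp and quantile normalization (highest adjusted p = 0.71).

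The 4 LXR targets did not move together. Mylip, whose product IDOL marks lipoprotein receptors for degradation, was at 4.49, 4.31 and 3.97 on IFNg arrays E, F and G, against 2.49 to 3.71 with a median of 2.93 on untreated arrays, and at 5.49, 6.03 and 4.92 on IFNg_LPS arrays, against 3.12 to 4.22 with a median of 3.55 on LPS arrays. Both ranges with IFNgamma lay above their counterparts, and IFNg_LPS also lay above IFNg. The rises were 1.19 ± 0.27 in IFNg against untreated (limma adjusted p = 0.00165), 1.81 ± 0.27 in IFNg_LPS against LPS (adjusted p = 2.24e-05) and 1.23 ± 0.32 in IFNg_LPS against IFNg (adjusted p = 0.0114). The last was the only call of the set in that comparison, where the slide-set block gave 9 (5998 of all genes), the slide block 11 (7062) and the fit without slide set 3 gave 3 (2826). It was lost without IFNg array G or IFNg_LPS array F (adjusted p = 0.066 to 0.0975) and under normexp, quantile and median scaling (adjusted p = 0.113 to 0.297). In LPS against untreated Mylip rose by 0.60 ± 0.21 (adjusted p = 0.0217), a call lost without LPS array G or untreated array F (adjusted p = 0.0572 to 0.0589) and under the same 3 settings, with 0.12 after quantile normalization (adjusted p = 0.692). In IL4_LPS against LPS it fell by 0.96 ± 0.25 (adjusted p = 0.0116), lost without IL4_LPS array G (adjusted p = 0.0558) and with normexp (adjusted p = 0.212).

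Abca1 and Abcg1, the genes of the transporters that load cholesterol onto apolipoproteins and lipoproteins, differed from each other in IL4 cells. Abca1 was at 2.07, 2.40, 3.24 and 1.40 on IL4 arrays A, B, C and G, against 3.33 to 4.65 with a median of 4.21 on untreated arrays. Abcg1 was at 6.30, 6.16, 6.19 and 6.16 on the same IL4 arrays, against 5.09 to 5.40 with a median of 5.36 on untreated arrays. Neither pair overlapped, and these were the 2 calls of IL4 against untreated: Abca1 fell by 1.81 ± 0.31 (limma adjusted p = 0.000206) and Abcg1 rose by 0.90 ± 0.17 (adjusted p = 0.000523). In the 4 shared slide sets the differences were -1.93 to -1.26 for Abca1 and 0.80 to 0.92 for Abcg1. The Abca1 call was lost in the fit on shared slide sets alone (adjusted p = 0.0916) and the Abcg1 call under normexp (adjusted p = 0.0791). Without IL4 array C the count of calls in this comparison was 4. With the slide set as a block there were 9, among them Apoe (-0.96, adjusted p = 3.43e-05) and Nr1h3 (-0.58, adjusted p = 0.00108), and 4535 of all genes were called.

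Abca1 rose again when IL4 cells received LPS, to 3.20, 4.11, 3.55 and 2.77 on IL4_LPS arrays A, B, C and G, a change of 1.13 ± 0.35 against IL4 (limma adjusted p = 0.0153) that was lost without IL4 array G or IL4_LPS array B (adjusted p = 0.0732 to 0.0856). In IFNg against untreated it changed by -0.19 with an interval of -0.91 to 0.52, and in LPS against untreated by 0.05 with an interval of -0.50 to 0.60. Abcg1 was higher in IFNg against untreated by 1.14 ± 0.19 (adjusted p = 5.08e-05), in IFNg_LPS against LPS by 0.83 ± 0.19 (adjusted p = 0.00184) and in IL4_LPS against LPS by 0.70 ± 0.17 (adjusted p = 0.00825). Each of these Abcg1 calls was lost with only shared experiments and with only shared slide sets. Normexp also ended those of IFNg_LPS and IL4_LPS against LPS, and median scaling that of IL4_LPS against LPS. The highest adjusted p over the alternatives was 0.0833, 0.284 and 0.333, in the order given. Apoe, the gene of apolipoprotein E, was at 5.07, 4.96 and 4.96 on IFNg arrays E, F and G, against 5.92 to 7.72 with a median of 6.22 on untreated arrays. It fell by 1.48 ± 0.41 in IFNg against untreated (adjusted p = 0.00889) and by 1.28 ± 0.41 in IFNg_LPS against LPS (adjusted p = 0.0247), the second lost without any 1 IFNg_LPS array (adjusted p = 0.0591 to 0.102). In IL4 against untreated the Apoe change of -0.97 was not called (adjusted p = 0.102), and without slide set 3 it was -1.15 (adjusted p = 0.00195).

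Abca9, a transporter gene of the ABCA family that is known to be lowered by cholesterol loading in human macrophages, was well above background on no IFNg or IFNg_LPS array. Its measured levels were -7.68, -7.86 and -7.00 on IFNg arrays E, F and G, against -1.90 to -0.43 with a median of -1.33 on untreated arrays. In the scaling used here the signal is a bound there. On that scale Abca9 was at least 76.0-fold lower in IFNg than in untreated cells (limma adjusted p = 4.59e-10) and at least 25.0-fold lower in IFNg_LPS than in LPS cells (adjusted p = 6.99e-08). These folds set the mean of the brighter group against, per array, the higher of the lowest signal called well above background and the probe's own signal. On the IFNg arrays that was the probe's own signal, with a mean of -7.51, so the 76.0-fold is the fitted change itself. Neither fold is a bound under another background correction. With normexp background correction the fitted changes were -3.17 in IFNg against untreated (adjusted p = 5.57e-05) and -1.05 in IFNg_LPS against LPS, where the call was lost (adjusted p = 0.227). LPS against untreated lowered it by 1.24 ± 0.37 on the log2 scale (adjusted p = 0.00812; -0.67 and adjusted p = 0.253 with normexp), with LPS arrays at -3.87 to -1.89 and a median of -2.37. In IL4_LPS against IL4 the change was -1.32 ± 0.49 (adjusted p = 0.0429; adjusted p = 0.0546 with the experiment letter as a block), lost without IL4 array A, B or C or IL4_LPS array B or G (0.0531 to 0.194), and 2 dimmer probes of Abca9 had changes of 0.78 and 0.25 there.

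In fatty acid synthesis Fasn and Acaca fell with IFNgamma and Scd2 with LPS, and the slide-set block added Fasn to the LPS calls. Fasn, the gene of fatty acid synthase, was at 1.05, 2.22 and 3.56 on IFNg arrays E, F and G, against 2.64 to 5.33 with a median of 5.05 on untreated arrays. It was at -0.78, 0.63 and 1.77 on IFNg_LPS arrays, against 2.02 to 4.81 with a median of 3.88 on LPS arrays. It was spread widely within the IFNgamma groups, and only the ranges of IFNg_LPS and LPS lay apart. Fasn fell by 2.31 ± 0.65 in IFNg against untreated (limma adjusted p = 0.00947), lost without IFNg array E (-1.70, adjusted p = 0.117), and by 3.17 ± 0.65 in IFNg_LPS against LPS (adjusted p = 0.000781). Acaca, the gene of acetyl-CoA carboxylase, which makes the malonyl units that fatty acid synthase uses, changed by -0.96 ± 0.24 (adjusted p = 0.00419) and -1.11 ± 0.24 (adjusted p = 0.00136) in the same comparisons, and both pairs of ranges lay apart. The first Acaca call was lost under normexp (-0.94, adjusted p = 0.0921), quantile (-0.72, adjusted p = 0.0523) and median scaling (-0.52, adjusted p = 0.283), with the mean of all probes and with shared experiments alone. The second was lost under median scaling (-0.85, adjusted p = 0.089) and with only shared experiments or shared slide sets.

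Fasn was also lower with LPS in every slide set that holds both groups, by -1.19 to -0.52 in 7 of 7 for LPS against untreated, -1.11 to -0.64 in 4 of 4 for IL4_LPS against IL4 and -1.83 to -1.58 in 3 of 3 for IFNg_LPS against IFNg. Without a block none of these changes was called (adjusted p = 0.176, 0.407 and 0.168). With the slide set as a block Fasn was called in all 3, with changes of -0.88 (limma adjusted p = 0.000765), -0.83 (adjusted p = 0.0134) and -1.73 (adjusted p = 0.0003).

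Scd2, the gene of a stearoyl-CoA desaturase that makes monounsaturated fatty acids, was at -0.90 to 3.69 with a median of 2.00 on LPS arrays, against 2.67 to 5.76 with a median of 5.38 on untreated arrays. On IL4_LPS arrays A, B, C and G it was at 2.83, 4.66, 0.94 and 3.38, against 6.12, 5.73, 4.30 and 6.14 on IL4 arrays. It fell by 3.16 ± 0.58 in LPS against untreated (limma adjusted p = 5.92e-05) and by 2.62 ± 0.76 in IL4_LPS against IL4 (adjusted p = 0.00918), the second lost without IL4_LPS array C (-1.95, adjusted p = 0.0607). Scd2 was lower in each of the 7 and 4 shared slide sets. On IFNg_LPS arrays E, F and G it was at 2.89, 2.63 and 1.94, against 5.15, 4.80 and 4.62 on IFNg arrays, and although these ranges lay apart the change of -2.38 ± 0.88 was not called (adjusted p = 0.085); without slide set 3 it was called (adjusted p = 0.000674). IFNg and untreated cells differed by -0.15 with an interval of -1.69 to 1.39. Scd1, the other desaturase gene, was called in no comparison without a block. It was lower with LPS in all of the 7, 4 and 3 shared slide sets, and with the slide set as a block it was called in LPS against untreated (-0.53, adjusted p = 0.0203), not in IL4_LPS against IL4 (adjusted p = 0.0869) or IFNg_LPS against IFNg (adjusted p = 0.444). Its change in IFNg against untreated was -1.48 (adjusted p = 0.128), and -1.93 without slide set 3 (adjusted p = 4.46e-07), whose untreated array G stood at -1.45, against 1.33 to 1.82 on the other 6.

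Lpl, the gene of lipoprotein lipase, changed by -0.56 ± 0.20 in IFNg against untreated (limma adjusted p = 0.0397) and -0.69 ± 0.20 in IFNg_LPS against LPS (adjusted p = 0.0126). It was at 6.33, 6.07 and 7.26 on IFNg arrays E, F and G, against 6.90 to 7.40 with a median of 7.10 on untreated arrays, so that array G lay within the untreated range. The first call was lost without any 1 of 6 arrays (IFNg E or F, untreated A, B, E or F, adjusted p = 0.0527 to 0.303) and without slide set 3 (adjusted p = 0.0506), the second without IFNg_LPS array E or F (adjusted p = 0.0649 to 0.121). In IL4_LPS against IL4 it was higher by 0.55 ± 0.21 (adjusted p = 0.0443), but not with the experiment letter as a block (adjusted p = 0.0561), nor without IL4 array B or C or IL4_LPS array A, B or G (0.0528 to 0.143), and it was at -0.04 after quantile normalization (adjusted p = 0.91). With the letter as a block, IL4_LPS against IL4 kept 5 of its 7 calls.

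IL4 and IFNg cells were also compared directly. Of the 33 genes 19 were called, 15 higher and 4 lower in IL4 than in IFNg cells, where 27.7% of all genes were called (14.5% higher and 13.2% lower). With median scaling 14 were called, 10 higher and 4 lower, and the split over all genes was 1330 higher and 3416 lower, beside 3253 higher and 2960 lower. All 16 synthesis genes had positive changes, 9 of them called, with a median of 1.66. Cyp51 was at 2.27, 1.09, -0.10 and 1.27 on IL4 arrays A, B, C and G, against -2.18, -2.14 and -1.57 on IFNg arrays E, F and G, a change of 3.09 ± 0.56 (limma adjusted p = 0.000125), and Fasn differed by 3.11 ± 0.72 (adjusted p = 0.00177). Ch25h (-4.73 ± 0.69, adjusted p = 9.13e-06), Mylip (-1.89 ± 0.30, adjusted p = 2.4e-05), Nr1h3 (-1.77 ± 0.20, adjusted p = 1.79e-07) and Abca1 (-1.61 ± 0.38, adjusted p = 0.00219) were lower in IL4 cells. On the scale used here Abca9 was 35.7-fold higher in IL4 cells as fitted (adjusted p = 3.94e-08), against IFNg signals that were not well above background. That fold is no bound under another background correction, and the lowest log2 change of Abca9 under an alternative fit was 2.52. Experiment G is the only experiment, and slide set 7 the only slide set, that holds both groups, and 18 of the 19 called genes differed there in the called direction, all but Ebp. The arrays of slide set 7 also entered the fit that made the calls, so this is no independent support. Calls of Ebp (5 arrays, adjusted p = 0.0585 to 0.26) and Srebf2 (5 arrays, 0.0735 to 0.218) were each lost without IL4 array A, B or G or IFNg array E or F, that of Fdps without IL4 array A or IFNg array E or F (0.058 to 0.071), that of Mvk without IFNg array E (0.0531) and that of Lpl without IFNg array F (0.0729).

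In IL4_LPS against LPS cells the 4 calls were Nr1h3, Abcg1 and Mylip, given above, and Mvd. Mvd was at 0.83, 2.14, 0.20 and 1.31 on IL4_LPS arrays A, B, C and G, against -0.93 to 1.24 with a median of -0.23 on LPS arrays. It was higher by 1.22 ± 0.36 (limma adjusted p = 0.0309), and the call was lost without IL4_LPS array B or G or LPS array A, E, F or G (adjusted p = 0.0533 to 0.174). Without IL4_LPS array G only 1 call of the comparison was left. Apoe had a change of -1.12 with an interval of -1.89 to -0.35 (adjusted p = 0.0629), and without slide set 3 it was -1.29 (adjusted p = 0.000892).

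Of 15 other genes of cholesterol synthesis and uptake, 2 were called higher and 5 lower in IFNg against untreated, and 2 higher and 8 lower in IFNg_LPS against LPS, beside 25.8% and 22.7% of all genes called. In IFNg against untreated the lower genes included the lipoprotein receptor genes Lrp1 (-1.81 ± 0.21, limma adjusted p = 4.4e-07) and Vldlr (-1.64 ± 0.43, adjusted p = 0.0054), while Ggps1, the gene of geranylgeranyl diphosphate synthase, which takes isoprenoids away from the sterol branch (1.16 ± 0.15, adjusted p = 3e-06), and Insig2 (0.83 ± 0.17, adjusted p = 0.00057) were higher. In IFNg_LPS against LPS the lower genes included Scap, whose product escorts SREBP (-1.87), and the demethylation gene Msmo1 (-1.86), and the 2 rises were those of Insig2 (1.18) and Ggps1 (0.44). LPS against untreated had 5 higher and 4 lower, beside 42.8% of all genes. Ggps1 rose (0.70), and Vldlr (-1.21), Scarb1 (-0.79) and Lrp1 (-0.64) fell. IL4 against untreated had 1 call, Lrp1 (-1.15 ± 0.19, adjusted p = 0.00013), and IFNg_LPS against IFNg had 0. IL4_LPS against IL4 had 4 higher and 3 lower, and IL4_LPS against LPS 1 lower.

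Of 13 other genes of sterol handling and LXR partners, 1 was higher and 6 were lower in both IFNg against untreated and LPS against untreated, beside 25.8% and 42.8% of all genes called. Rxra, the gene of the retinoid X receptor that pairs with LXR, fell by 3.52 ± 0.21 in LPS against untreated (limma adjusted p = 4.8e-13) and by 1.56 ± 0.27 in IFNg against untreated (adjusted p = 8.5e-05), and rose by 0.84 ± 0.24 in IL4 against untreated (adjusted p = 0.024). Npc2, the gene of a lysosomal sterol carrier, was the 1 rise in LPS (0.90) and in IFNg (1.18) cells. The other largest falls were those of Nceh1 (-1.39) and of Lipa and Rxrb (-1.01 each) in LPS against untreated, and of Apoc2 (-2.08) and Cyp27a1 (-1.59) in IFNg against untreated. Apoc2 was also the 1 fall in IL4 against untreated (-2.25 ± 0.50, adjusted p = 0.0027). The list had 1 higher and 4 lower in IL4_LPS against IL4, 2 lower in IFNg_LPS against IFNg (Rxra -1.43, Npc1 -0.90), 1 higher and 2 lower in IL4_LPS against LPS, and 2 higher and 4 lower in IFNg_LPS against LPS.

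Of 27 other genes of fatty acid metabolism and fat storage, 4 were higher and 5 lower in IFNg against untreated, 4 higher and 6 lower in LPS against untreated, and 4 higher and 1 lower in IL4 against untreated. Over all genes 25.8%, 42.8% and 11.3% were called there, so that the share of the list was near the background in IFNg and below it in LPS cells. Acsl1, the gene of a long-chain acyl-CoA synthetase, rose by 3.98 ± 0.23 in IFNg (limma adjusted p = 2.8e-12) and by 3.15 ± 0.17 in LPS cells (adjusted p = 1.4e-13) and fell by 0.77 ± 0.20 in IL4 cells (adjusted p = 0.013), each against untreated. Hilpda, the gene of a lipid droplet protein that holds back lipolysis, rose by 2.96 in IFNg against untreated and by 5.12 ± 0.56 in IFNg_LPS against LPS (adjusted p = 3.9e-07). Dgat2, the gene of a triglyceride-forming acyltransferase, rose by 3.44 ± 0.25 in LPS against untreated (adjusted p = 2.7e-11) and fell by 3.33 ± 0.33 in IFNg_LPS against LPS (adjusted p = 7.8e-08). The lowest of this list in LPS against untreated were Lpin1 (-3.12), Acsl3 (-2.48) and Fads1 (-2.33), and in IFNg against untreated Lpin1 (-2.28), Elovl6 (-1.97) and Fads2 (-1.66). IL4 raised the fatty acid carrier gene Fabp4 (1.52 ± 0.26, adjusted p = 0.00015), Dgat2 (1.49) and Pparg, the gene of a lipid-sensing nuclear receptor (1.33 ± 0.19, adjusted p = 1.5e-05). The list had 5 higher and 6 lower in IL4_LPS against IL4, 2 and 2 in IFNg_LPS against IFNg, 2 and 2 in IL4_LPS against LPS, and 5 and 3 in IFNg_LPS against LPS.

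Marker lists of other cell types moved with some treatments. The 5 adipocyte markers summed to 0.232 to 1.42 times the 75th percentile on IL4 arrays, against 0.0533 to 0.239 on untreated arrays. Adipoq was higher by 5.44 ± 0.74 in IL4 against untreated (limma adjusted p = 8.81e-06). Plin1 (-0.0019) and Cidec (-0.11) were not called there, and Lep and Cfd were well above background on 0 of 4 IL4 arrays. Of the other lists, the endothelial marker Pecam1 was called higher in IL4 against untreated (3.35 ± 0.41, limma adjusted p = 1.54e-06). The B cell marker Cd79b (-0.93, adjusted p = 0.0291) and the neutrophil precursor marker Elane (adjusted p = 0.027) were called lower. The 5 fibroblast markers summed to 2.68 to 5.90 on LPS arrays, against 0.293 to 0.596 on untreated arrays, with Pdgfrb and Dcn called and Col1a1, Col1a2 and Col3a1 not. The 4 dendritic cell markers summed to 1.38 to 8.87 on LPS arrays, against 0.288 to 0.508 on untreated arrays; of these Zbtb46 was called (4.85 ± 0.48, adjusted p = 5.04e-09), and Flt3, Siglech and Xcr1 were not. The T cell marker Cd247, well above background on 7 of 7 LPS arrays and 0 of 7 untreated arrays, and the endothelial marker Pecam1 (2.97 ± 0.35, adjusted p = 9.37e-08) were also called higher in LPS against untreated. The other T cell and endothelial markers were not called there.

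In IFNg cells the adipocyte, fibroblast and dendritic cell lists summed to 0.0551 to 0.0587, 0.284 to 0.331 and 0.448 to 1.60. Zbtb46 (2.58 ± 0.62, adjusted p = 0.00265) and Pecam1 (1.74 ± 0.45, adjusted p = 0.00501) were called higher in IFNg against untreated by limma. Lower were the neutrophil precursor markers Mpo (-1.12 ± 0.31, adjusted p = 0.00952) and Elane, which was well above background on 0 of 3 IFNg and 4 of 7 untreated arrays (adjusted p = 0.0169), the B cell marker Cd79b (-1.20 ± 0.31, adjusted p = 0.00461) and the fibroblast marker Pdgfrb (-1.42 ± 0.47, adjusted p = 0.0286). The other tested neutrophil, B cell, fibroblast, dendritic cell and endothelial markers were not called. In the neutrophil, B cell and fibroblast lists changes were positive for Camp (0.31), Ngp (0.06), S100a8 (0.0022), Ms4a1 (0.12) and Dcn (1.53), and negative for the rest. The neutrophil list summed to 2.59 to 6.81 on IFNg arrays, against 2.92 to 6.86 on untreated arrays. In IFNg_LPS against LPS Mpo (-1.14), Elane, Cd79b (-1.17), Pdgfrb (-2.75) and Col1a1 (-1.26) were called lower. Their part in the results above was not tested.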

How the data were processed

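RNA of 28 macrophage cultures in 6 groups was measured on single-colour 44K arrays labelled with Cy3. The deposited intensity values were made with Agilent Feature Extraction 9.5.1, per the submitters' processing notes; per the file headers the signal was detrended, low spots were replaced by surrogates and local background was not subtracted. The value table that the authors deposited holds log2 values relative to a probe's median in the untreated columns; its columns do not match the arrays their names give, so it was not used.

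From the log2 of the processed signal the 75th percentile of each array was subtracted, outlier spots (at most 414 an array) were left out, and replicate spots were averaged. Probes were named through their accession (22951), current symbol (6659) or synonym (3109), or kept the array's name (8455). All genes with a brightest probe well above background on at least 3 arrays were fitted in limma 3.58.1 (R 4.3.3 with data.table, version 1.17.8) as 6 group means, with two-sided moderated tests adjusted over 22406 genes, which a self-test on simulated data checked. Plots used matplotlib 3.10.9 under Python 3.11.15. The comparisons number 10, of which 2 are interactions. The number of arrays, 3 to 7 a group, limits the precision, and printed 95% intervals are not adjusted.

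Every gene of the set was open to description; of the other pathway lists up to 3 called genes with the largest change in each direction were named, and the 10 marker lists were fixed too. Some genes that this rule takes are counted in their list but not reported by name here. The genes, lists and tests were chosen with earlier results of these data known. After removal of group means, arrays of 1 experiment letter correlated at 0.154 to 0.73 between IL4_LPS and IL4 and at 0.282 to 0.641 between IFNg_LPS and IFNg. Letters E, F and G of both IFNgamma groups lie in slide sets 5, 6 and 7, so letter and slide set cannot be told apart there. IL4 and IL4_LPS arrays share a slide set for letters C and G but not for A and B. Between all groups same-letter correlations ran from -0.532 to 0.73, and those of 1 slide set from 0.0284 to 0.817. Alternatives were blocks for letter, slide, scan day and slide set, subsets of arrays, normexp background correction (offset 50), quantile and median scaling, other filters, the mean of all probes, and each array left out in turn. The slide-set block, the fit without slide set 3 and the fit on shared slide sets alone were chosen after seeing the data.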

Additional observations from a re-analysis of the deposited data

Results flagged for a closer look

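Dixon's test was run on the untreated, LPS, IL4 and IL4_LPS groups. The IFNg and IFNg_LPS groups, with 3 arrays each, were not tested, so none of their arrays could be flagged. The test, which flags about 1 in 20 groups by chance, marked 15 of 132 gene and group combinations (11.4%) in which 1 array lay far from the others of its group. Of these, 11 were arrays of slide set 3, 5 of them untreated array G. On untreated array G the relative level was 0.60 for Idi1 (next array 2.56), 1.78 for Fdps (3.66), -1.01 for Cyp51 (0.54), -1.45 for Scd1 (1.33) and 2.67 for Scd2 (5.08). On LPS array E it was 0.0089 for Tm7sf2 (next array 1.43), -0.85 for Dhcr7 (1.07), -2.02 for Scd1 (0.65) and -0.90 for Scd2 (1.84). IL4_LPS array C had -0.80 for Scd1 (1.17), and IL4 array C had the highest level of Apoe in its group, 6.64 (5.20). Slide set 1 held the other 4: IL4_LPS array B had 2.82 for Fdft1 (1.59) and 2.85 for Hsd17b7 (0.49), and LPS array C had 2.82 for Fdft1 (1.94) and -3.87 for Abca9 (-2.57).

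The LPS change differed between primed and unprimed cells, by limma's interaction term with adjustment over all genes, for several genes. In IL4-primed cells the interaction was 1.07 for Nr1h3 (adjusted p = 0.013), whose rise was larger than in unprimed cells, and 1.42 for Rxra (adjusted p = 0.0315), whose fall was smaller (-2.10 in IL4-primed and -3.52 in unprimed cells). It was -1.81 for Dgat2 (adjusted p = 0.0227), whose rise was smaller, and -2.08 for Pparg (adjusted p = 5.52e-05), whose fall was larger. In IFNgamma-primed cells the interaction was -3.54 for Ch25h (adjusted p = 0.0112), -3.26 for Dgat2 (4.04e-05), -2.27 for Acsl1 (3.65e-05) and -0.72 for Ggps1 (0.0403). Gpam was not well above background on any IFNg_LPS array, so its interaction (-1.40 as fitted, adjusted p = 0.00349) is no exact value; Gpam was at least 2.43-fold lower in IFNg_LPS than in IFNg cells (adjusted p = 0.00101), and its change in LPS against untreated was 0.10 (adjusted p = 0.682). The interaction was positive for Lpin1 (2.16, adjusted p = 0.00194) and Rxra (2.08, adjusted p = 0.000667).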

How the results depend on the processing

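Of 89 called results of single genes, 31 held under all alternatives and 58 were lost under at least 1. The blocks for slide, scan day and slide set ended 0, 1 and 1 of the 89 calls, the letter block 20, leaving out slide set 3 4, median scaling 34, normexp 31, quantile scaling 8 with 2 more reversed, and fitting only shared experiments 39 of 70. The reversed values were those of Srebf2 in LPS against untreated (-0.14) and Lpl in IL4_LPS against IL4 (-0.041). Leaving out 1 array at a time gave 895 refits of the 89 calls, and in 95 of these refits the call was lost. A call enters once for each array left out, so 1 call can be lost several times.

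Counts of called genes moved by over 1.5 times as follows, with the number called over all genes tested in brackets. Slide block: LPS against untreated 23 (13215), IL4 against untreated 6 (3059), IL4_LPS against IL4 20 (11879), IFNg_LPS against IFNg 11 (7062), IL4_LPS against LPS 10 (3862), IL4 against IFNg 29 (7073) and the IFNgamma interaction 5 (4165). Scan-day block: 22 (12266), 7 (3944), 15 (9916), 8 (5196) and 9 (3205) for the first 5 of these. Slide-set block: 24 (12825), 9 (4535), 16 (10636), 9 (5998), 10 (3743), 30 (7546) and 3 (4199) for all 7. Letter as a replicate block: 12 (4997) for IFNg against untreated and 2 (1551) for IL4_LPS against LPS. Without slide set 3 there were 3 (2826) for IFNg_LPS against IFNg and 7 (1578) for IL4_LPS against LPS. Only the groups compared gave 4 (5724) for IL4_LPS against IL4 and 2 (1175) for IL4_LPS against LPS. Shared experiments gave 5 (2828) for IFNg against untreated, 4 (5724) for IL4_LPS against IL4 and 0 (456) for IL4_LPS against LPS. They gave 8 (1658) for IFNg_LPS against LPS and 0 for the IL4 (112) and IFNgamma (636) interactions. Shared slide sets gave 1 (1439) for IL4 against untreated, 4 (5724) for IL4_LPS against IL4, and 0 for IL4_LPS against LPS (323) and the IL4 interaction (68). Normexp gave 1 (702) for IL4 against untreated, 13 (2656) for IFNg against untreated and 3 (3504) for IL4_LPS against IL4. It gave 0 for IL4_LPS against LPS (511) and the IL4 interaction (39). Quantile scaling gave 5 (2707) for IL4 against untreated, and the filter on all arrays of a group gave 2 (2933 of 18333) for IFNg_LPS against IFNg. Median scaling gave 8 (8433) for LPS against untreated, 9 (5129) for IFNg against untreated and 0 (1359) for IFNg_LPS against IFNg. It gave 1 (1080) for IL4_LPS against LPS and 0 (181) for the IL4 interaction.

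Leaving out 1 array gave 11 to 13 calls for LPS against untreated, 2 to 4 for IL4 against untreated, 11 to 26 for IFNg against untreated, 5 to 7 for IL4_LPS against IL4, 0 to 1 for IFNg_LPS against IFNg, 1 to 6 for IL4_LPS against LPS, 16 to 24 for IFNg_LPS against LPS, 15 to 24 for IL4 against IFNg, 1 for the IL4 interaction and 0 to 1 for the IFNgamma interaction. The causes of these shifts were not tested. The subsets also hold fewer arrays, and the part of that in the shifts was not tested either. The deposited value table was not run because its columns match arrays other than those they name. Whether a letter marks 1 culture is not given in the labels. The letter block gave 12 calls for LPS against untreated (9563 over all genes) and 19 for IFNg_LPS against LPS (4457). Abca9 with IFNgamma is limited by signal over background, and no other gene of the set was below background on a whole group.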
